A study of Arabidopsis thaliana with 30 samples.

Results

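C24 and Ler, the 2 parents of the crosses in this series, are inbred laboratory accessions of Arabidopsis thaliana, and their transcriptomes were compared across all counted genes. The comparison uses 3 libraries of C24 and 3 of Ler, chosen by their line labels from the 30 libraries of the series. Both parents were 15-day seedlings sampled as whole aerial tissue, grown without treatment on agar medium with mineral salts and sucrose under long days. Ler (Landsberg erecta) carries the erecta mutation of a receptor kinase that controls stem and organ shape, and the labels name no introduced allele or agent in either parent. The other 24 libraries were made from both F1 hybrids of the cross (C24XLer and LerXC24) and 6 F6 lines derived from it (Sml-D, HM-G, Med-F, HM-W, Med-E and HM-S), with 3 libraries per line. The labels call the parental libraries biological replicates (A, B and C) and do not say if a library is 1 plant or a pool. Whether their spread is that of single plants or of pools is therefore not known. The spread behind the p-values was estimated over the libraries of all 10 lines.

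Natural accessions differ by single-base changes, by gained and lost gene copies and by transposon insertions. Families exposed to pathogens and herbivores, such as intracellular immune receptors and the enzymes of glucosinolate metabolism, are known for much of this variation. Reads of both parents were counted on TAIR10, the genome of the accession Columbia, per the submitters' processing notes. A low count in 1 parent can therefore come from less RNA or from sequence that aligns less well, and these cannot be told apart here. In whole aerial tissue, fewer cells of a type and less RNA per cell cannot be told apart either.

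The 6 libraries held 43814602 to 47093898 reads, of which 87.8% to 88.7% were classed as accepted in the deposited depth table. Log2 levels correlated at 0.9853 to 0.9917 between libraries of the same parent and at 0.9542 to 0.9629 between parents, and the first principal component, with 71.7% of the variance, separated C24 from Ler. C24 C stood apart from the other 5 in its share of reads aligned at several loci, 0.139% against 1.41% to 1.72%. It also had the highest clock index (mean log2 level of 5 evening genes minus that of 5 morning genes), -0.896 beside -2.319 and -1.695 in C24 A and B and -2.561, -2.475 and -2.113 in Ler A, B and C. No harvest time is given in the labels. Ler C, and to a lesser degree Ler B, stood apart from Ler A at heat-shock genes. Results that move without C24 C or Ler C are given with and without them.

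Levels below are CPM, counts put on a common library size after TMM scaling. Because CPM is not divided by transcript length, levels are compared between libraries and not between genes. Rankings and classes of genes by CPM are likewise not corrected for length. A log2 change is C24 minus Ler and carries its standard error, and calls are genes whose p in edgeR's quasi-likelihood test, adjusted by Benjamini-Hochberg over all tested genes, was under 0.05. After a filter on low counts 29268 of 33498 genes were tested and 7555 (25.8%) were called, 3902 (13.3%) higher and 3653 (12.5%) lower in C24. Most differences were small: 5517 of the called genes, or 73.0%, had an absolute log2 change under 1, and the median over called genes was 0.62. A change of at least 1 was found at 1060 genes (3.62%) above Ler and 978 (3.34%) below it, and a change of at least 3 at 184 and 143 genes. The libraries of the parents did not overlap at 94.5% of the called genes, beside 40.5% of all tested genes.

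**Figure D1:**
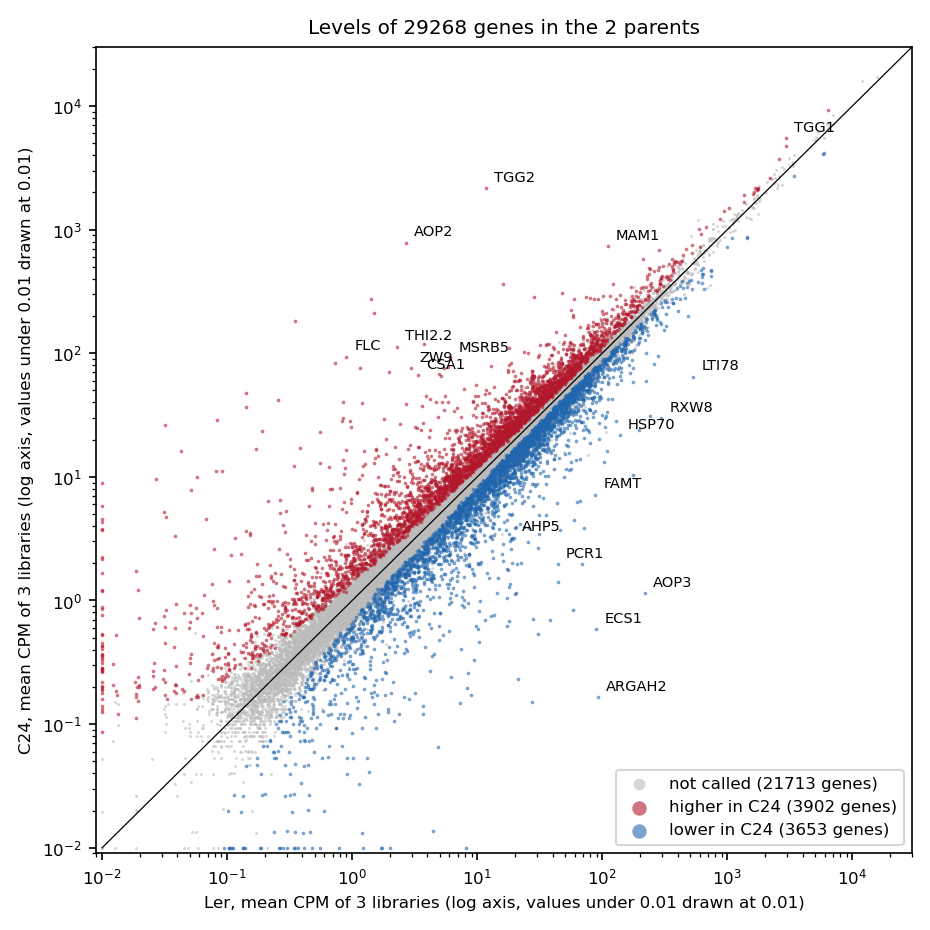
Mean level of each of 29268 tested genes in Ler (horizontal axis, CPM, log scale) and in C24 (vertical axis, CPM, log scale), each from 3 libraries, with points on the diagonal equal in both parents. The 3902 genes higher in C24 are red and the 3653 lower are blue, and named genes such as THI2.2 and CSA1 above the line and PCR1 and FAMT below it lie far from the diagonal.

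Genes were classed by their mean CPM over all 30 libraries of the series. The share of called genes rose with this level up to 32.6% at 30 to 100 CPM, and the share with a change of at least 1 was highest at the lowest levels. Under 0.3 CPM 13.2% of tested genes were called and 12.8% were called with a change of at least 1, and above 100 CPM the shares were 30.6% and 2.95%. In the most abundant class 305 genes were higher in C24 and 183 lower. Protein-coding genes were called at 26.2% and reached a change of at least 1 at 5.95%. Pseudogenes were called at 25.8%, transcribed pseudogenes at 20.4% and long noncoding RNAs at 35.3%. They reached a change of at least 1 at 17.5%, 13.8% and 12.7%. These classes were not compared at matched levels. The 5 chromosomes were alike, with 25.1% to 26.8% called on each. In 52 called genes all 3 libraries of 1 parent were at 0, 20 in C24 and 32 in Ler, and their fitted changes depend on the prior count of the fit.

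The genes with the largest changes in favour of C24 have diverse roles. Called genes were ranked if they had a symbol, a mean of at least 10 CPM over the 6 parental libraries and no overlap with another counted gene. The ranking also took only genes whose C24 and Ler libraries did not overlap, so this separation is no added result for them. AOP2, TGG2 and FLC had the largest changes (8.19 ± 0.24, 7.53 ± 0.18 and 6.71 ± 0.21 on the log2 scale). Next was THI2.2 (chr5:14561743-14562863), a thionin, one of the small antimicrobial plant peptides, at 142, 86.3 and 109 CPM in C24 A, B and C and 2.43, 2.2 and 2.18 in Ler A, B and C. Its log2 change was 5.63 ± 0.29 (adjusted p = 1.4e-13). ZW9 (chr1:21611803-21614169), which codes for a protein with TRAF-like domains, was at 75.8, 65.9 and 85 CPM in C24 and 3.18, 2.42 and 3.28 in Ler (4.67 ± 0.57). MSRB5 (chr4:2445775-2447086), a methionine sulfoxide reductase that repairs oxidised methionine, was at 85.7, 114 and 74.4 CPM in C24 and 6.26, 7.32 and 4.53 in Ler (3.92 ± 0.42). The same ranking also holds SCPL12 (2.93 ± 0.14), a serine carboxypeptidase-like protein, and GSTU26 (2.89 ± 0.17), a glutathione S-transferase of the tau class.

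The genes with the largest changes in favour of Ler were also diverse. ARGAH2, AOP3 and ECS1 had the largest falls of the same class of genes (-9.09 ± 0.67, -7.57 ± 0.32 and -7.24 ± 0.64 on the log2 scale). PCR1 (chr1:5132506-5133860), a membrane protein linked to cadmium resistance, was at 2.29, 1.59 and 2.02 CPM in C24 and at 20.3, 68.3 and 43.2 in Ler, a change of -4.48 ± 0.86 on the log2 scale (adjusted p = 0.00032). FAMT (chr3:16379571-16381434), a methyltransferase for farnesoic acid, was at 8.9, 7.57 and 5.09 CPM in C24 and 75.9, 123 and 62.2 in Ler (-3.6 ± 0.74). The ranking rule fixed that the groups did not overlap, and both genes had a wide spread within Ler. PORA (chr5:21990864-21992814), the protochlorophyllide oxidoreductase best known from seedlings greening after darkness, was at 17.4, 11.9 and 19.4 CPM in C24 and 132, 105 and 91.1 in Ler (-2.75 ± 0.3, adjusted p = 1.1e-07). The trypsin inhibitor TI1 was at 4.17, 5.57 and 5.07 CPM in C24 and 48.6, 24 and 20.5 in Ler, and its relative TI2 was lower by a log2 change of -1.86 ± 0.32.

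By the difference in CPM rather than by fold, abundant genes with small changes came first. TGG1, the second leaf myrosinase, was at 5410, 5310 and 5880 CPM in C24 and 3070, 2760 and 2980 in Ler (0.91 ± 0.11, adjusted p = 8.1e-07), and the epithiospecifier protein gene AT1G54040 was at 5120, 4660 and 4410 beside 2970, 3020 and 2860 (0.68 ± 0.18). Carbonic anhydrase CA2 was higher by 0.59 ± 0.13, with 1330, 1350 and 1540 CPM in C24 and 974, 849 and 975 in Ler. On the other side stood the metallothionein MT2B, a small metal-binding protein, at 864, 897 and 809 CPM in C24 and 1350, 1460 and 1480 in Ler (-0.74 ± 0.09). The entry next to it, AT5G02370, had nearly the same counts in every library, so the reads of the 2 entries cannot be told apart. Other genes on this scale had small changes that were lost on leaving out single libraries: CAB3 (0.54 ± 0.16, lost without Ler C), LHCA3 (-0.52 ± 0.16, lost without C24 B or Ler A), the catalase AT1G20620 (-0.53 ± 0.17, lost without C24 A, C24 B or Ler B), THI1 (-0.33 ± 0.11) and FBA2 (0.27 ± 0.1), the last 2 being lost without any 1 of several libraries, C24 A and C24 B among them.

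**Figure D2:**
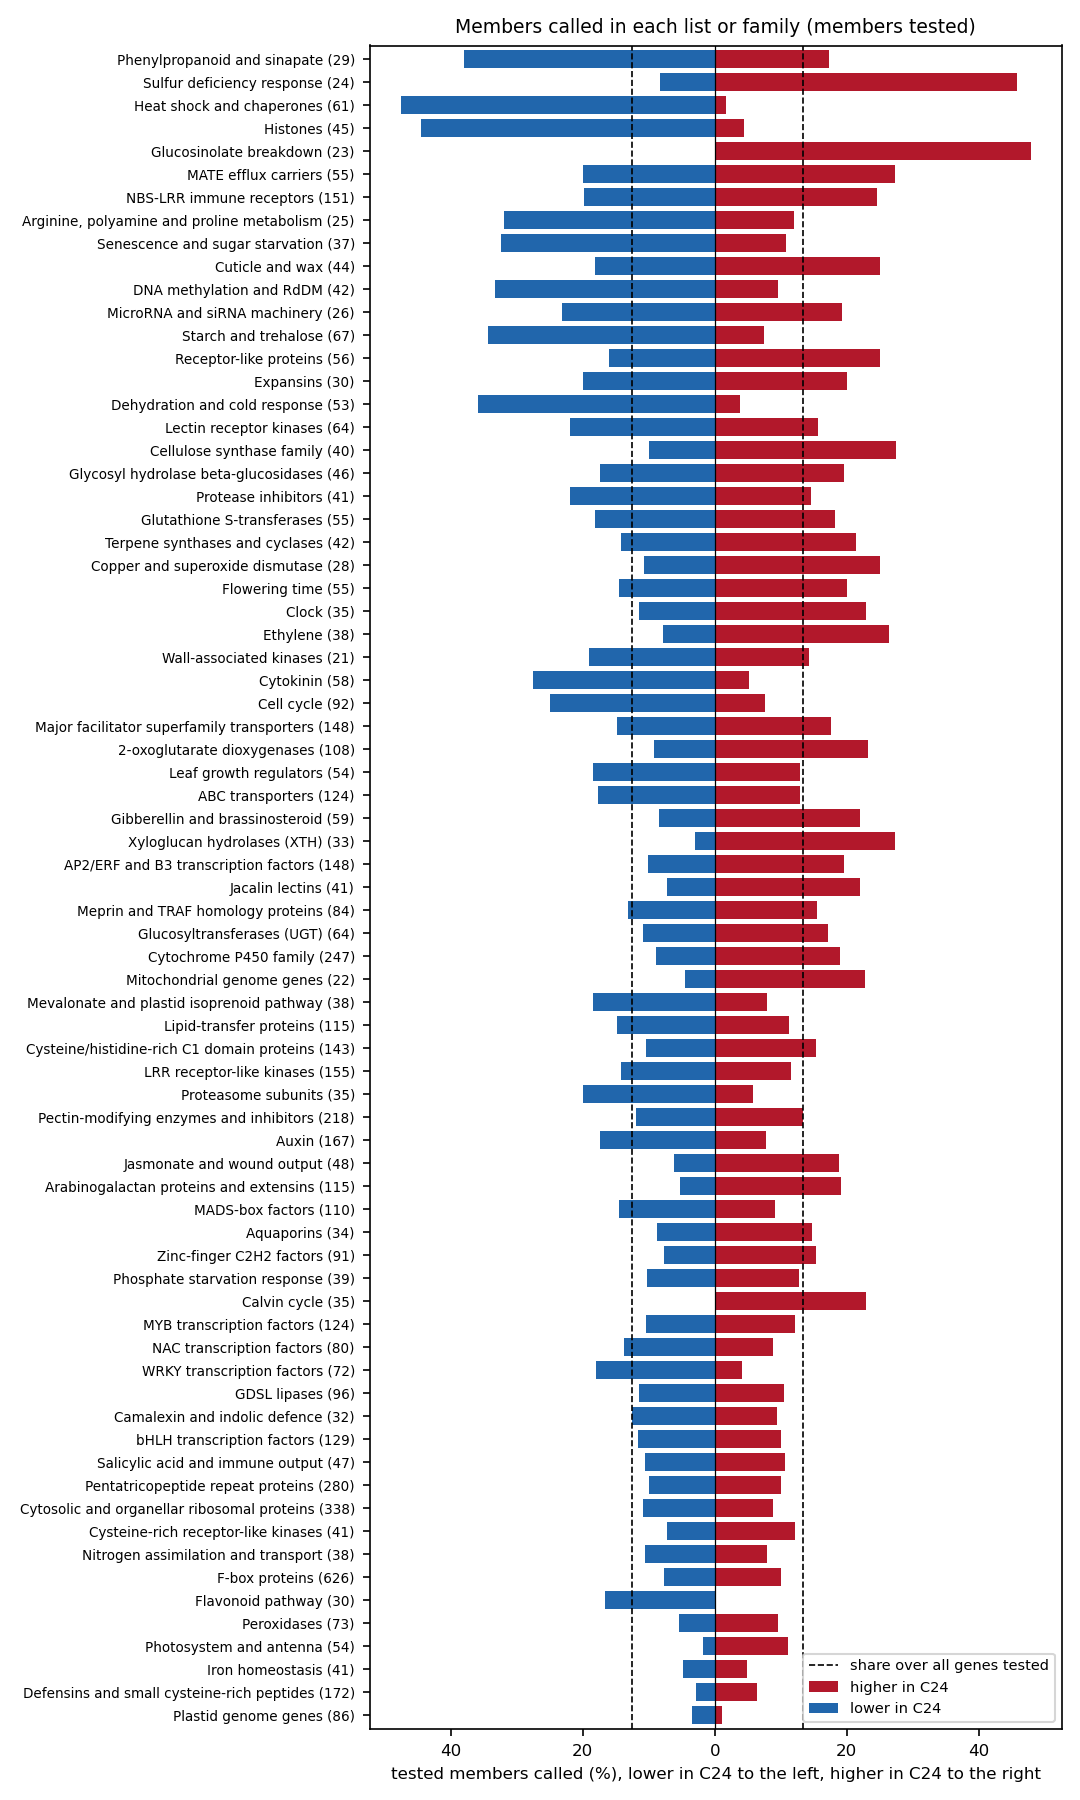
Share of tested members called higher (red, to the right) or lower (blue, to the left) in C24 for each gene list or family with at least 20 tested members, in percent, with the number tested in parentheses and dashed lines at 13.3% and 12.5%, the shares over all genes. Glucosinolate breakdown and sulfur deficiency lie to the right, heat shock, histones and dehydration to the left, and F-box, defensin and plastid genes are short on both sides.

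Glucosinolates are sulfur-rich defence compounds of the cabbage order that myrosinases break down to toxic products when tissue is damaged, and specifier proteins steer which product forms. Of 23 tested genes of glucosinolate breakdown, 11 were higher in C24 and 0 lower, 47.8% called against 25.8% of all genes, with a median log2 change of 0.76 against 0. The nitrile specifier gene NSP1 was at 321, 249 and 249 CPM in C24 and 64.4, 63.3 and 51.3 in Ler, a change of 2.19 ± 0.24 on the log2 scale (adjusted p = 1.1e-07). Its C24 libraries were all above its Ler libraries, but 22.3% of its 50-base windows also occur elsewhere in the genome, so a part of its reads may be shared. AT1G54010, annotated as a GDSL-like lipase, was higher by 2.25 ± 0.38, and AT3G16420, the binding protein of the beta-glucosidase PYK10, by 1.74 ± 0.16. On the synthesis side MAM1, which lengthens the side chain of methionine-derived glucosinolates, was at 793, 693 and 720 CPM in C24 and 108, 116 and 107 in Ler (2.74 ± 0.18).

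Of 24 tested genes that respond to sulfur shortage, 11 were higher in C24, 2 were lower and 11 were not called (54.2% called, median 0.85). The ChaC-like gene AT5G26220, of an enzyme family that cleaves glutathione and so releases its sulfur amino acid, was at 55.3, 37.8 and 21.9 CPM in C24 and 9.69, 9.91 and 10.5 in Ler, a change of 1.93 ± 0.38 on the log2 scale (adjusted p = 0.00043). All C24 libraries lay above Ler, with C24 A highest and C24 C lowest, and the same order of C24 libraries was seen at LSU3 (13.6, 8.9 and 3 CPM in C24, 2.9, 3.45 and 1.84 in Ler), whose groups overlapped. LSU3 (1.64 ± 0.47) was not called without C24 A or Ler C, and the beta-glucosidase BGLU28 (1.55 ± 0.58) was not called without any 1 of 5 libraries. The members that were lower were the sulfate transporter SULTR3;1, at 51.2, 50.1 and 50.2 CPM in C24 and 84.7, 76.2 and 67.8 in Ler (-0.59 ± 0.1), and DIN2. DIN2 rests on 1 library: it was at 21.5 CPM in Ler A and between 2.72 and 3.03 in the other 5, and without Ler A its log2 change was 0.01 (adjusted p = 0.98).

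Intracellular immune receptors with a nucleotide-binding site and leucine-rich repeats (NBS-LRR), which detect pathogen effectors, differed in both directions. Of 151 tested, 37 were higher and 30 lower in C24, 44.4% called, and 36 of them (23.8%) had a change of at least 1, beside 6.96% of all genes. CSA1 (chr5:5908834-5913317), a receptor with a TIR domain, was at 59.2, 66.5 and 73.1 CPM in C24 and 3.36, 3.51 and 3.14 in Ler, a change of 4.31 ± 0.12 on the log2 scale (adjusted p = 6.2e-19). The gene beside it, DAR4 (chr5:5916862-5923494), a receptor of the same class with an added LIM domain, was at 38.4, 38 and 41 CPM in C24 and 2.61, 2.55 and 2.94 in Ler (3.86 ± 0.13). In both, the 3 libraries of each parent were tightly grouped and far apart. The TIR class receptor AT1G63880 was at 64.5, 65.2 and 66.1 CPM in C24 and 5.39, 5.1 and 5.02 in Ler (3.66 ± 0.49). Among the falls, AT4G36140 had a mean of 2.07 ± 0.33 CPM in C24 and 16 ± 1.45 in Ler (SD, n = 3), a log2 change of -2.95 ± 0.12, a gene that overlaps another counted gene and is uncertain.

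Receptors and lectins at the cell surface also had members called in both directions. Of 56 receptor-like proteins, 14 were higher and 9 lower (41.1%), led by RLP18, at 17.5, 16.9 and 16.8 CPM in C24 and 0.446, 0.514 and 0.189 in Ler (5.47 ± 0.3), with RLP32 lower by -1.16 ± 0.11. Of 64 lectin receptor kinases, 10 were higher and 14 lower (37.5%), and the S-locus type kinase AT1G61500 was at 109, 118 and 130 CPM in C24 and 3.51, 3.63 and 4.15 in Ler (4.98 ± 0.53). Jacalin lectins, sugar-binding proteins that often act in defence, had 9 members higher and 3 lower of 41 (29.3%, beside 25.8% of all genes). Among them AT1G52100 was at 21.3, 14.4 and 14.8 CPM in C24 and 1.6, 1.67 and 1.34 in Ler (3.45 ± 0.26). In each of these leading genes the groups did not overlap. Meprin and TRAF homology proteins were called at 28.6% of 84, close to all genes, but 20.2% of them reached a change of at least 1. Besides ZW9, AT1G65370 was higher in C24 by 3.38 ± 0.5.

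Jasmonate, ethylene and salicylic acid are the hormones of wounding and infection. Of 48 jasmonate and wound genes, 9 were higher and 3 lower in C24. The share called, 25%, was close to the 25.8% of all genes, and the median log2 change was 0.45. AOC1, an allene oxide cyclase of jasmonate synthesis, was at 81.8, 125 and 99 CPM in C24 and 15.7, 33.1 and 22.7 in Ler, a change of 2.1 ± 0.37 on the log2 scale (adjusted p = 0.00013). ORA59, a factor that joins jasmonate and ethylene signals, was at 5.62, 12.7 and 16.6 CPM in C24 and 1.62, 2.29 and 2.73 in Ler (2.39 ± 0.47). The groups did not overlap for either gene. Lower in C24 were JMT, which makes methyl jasmonate (3.57, 3.57 and 3.11 CPM in C24, 14.2, 14.8 and 11.8 in Ler, -1.99 ± 0.32), and MYC3, a transcription factor of the jasmonate response, at 42.9, 44.5 and 48.3 CPM beside 92.9, 103 and 89.6 (-1.07 ± 0.09, adjusted p = 2.3e-09). MYC3 is 1 of 6 neighbouring genes that were all lower in C24, by 1.07 to 1.47 on the log2 scale. Of 38 ethylene genes, 10 were higher and 3 lower (34.2%). RAV2 was at 104, 94.1 and 105 CPM in C24 and 19.5, 20.8 and 35.7 in Ler (2 ± 0.27), its relative RAV1 was higher by 1.22 ± 0.3, and the ethylene synthesis gene ACS4 was lower by -1.58 ± 0.3. Salicylic acid and immune output genes were called at 21.3% of 47, 5 in each direction, and of 41 protease inhibitors 6 were higher and 9 lower (36.6%).

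**Figure D3:**
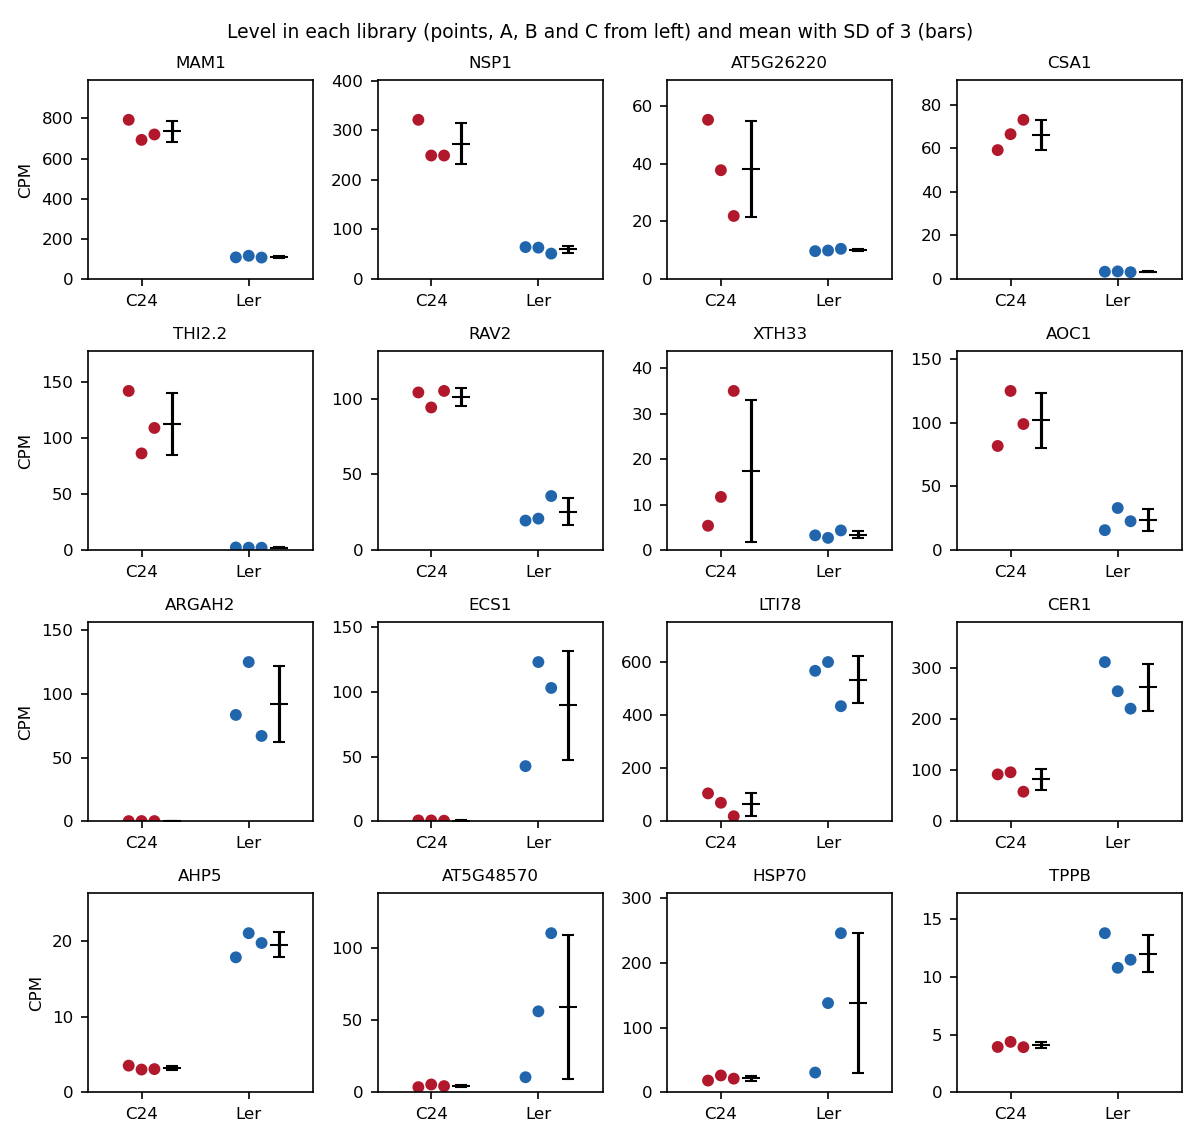
Level in CPM (vertical axes, linear, from 0) of 16 genes in each C24 library (red points) and each Ler library (blue points), with black bars at the mean and SD of 3. Libraries of a parent lie close together for CSA1 and AHP5, C24 C is highest for XTH33 and lowest for LTI78, and Ler A is near C24 for AT5G48570 and HSP70 while Ler B and Ler C are high.

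Heat-shock proteins are chaperones that heat-shock factors switch on when proteins unfold. Of 61 heat-shock and chaperone genes, 29 were lower in C24 and 1 was higher (HSP1, 0.5 ± 0.17, a gene that overlaps another and was not called without any 1 of 4 libraries), 49.2% called with a median log2 change of -0.4. HSP70 (AT3G12580) was at 18.3, 26.2 and 21.3 CPM in C24 A, B and C and 30.7, 138 and 246 in Ler A, B and C, a log2 change of -2.65 ± 0.64 (adjusted p = 0.0028). The immunophilin AT5G48570 was at 3.65, 5.49 and 4.35 CPM in C24 and 10.5, 56 and 110 in Ler (-3.71 ± 0.62). Without Ler C the changes were -1.94 for HSP70 and -2.89 for AT5G48570, both still called. In both genes Ler A lay just above C24 and Ler C was highest, and the groups did not overlap. The small heat-shock protein HSP17.6A was at 0.549, 1.11 and 1.19 CPM in C24 and 0.588, 5.29 and 19.5 in Ler (-3.16 ± 0.8), with Ler A inside the C24 range. Without Ler C, 18 members were called, 17 lower and 1 higher, and HSP17.6A was not called (adjusted p = 0.12). The source of the spread within Ler was not tested.

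Many heat-shock genes moved together, and the promoters of 2 members are shown, the regulator HSFA2 and the chaperone HSP70. Each runs from 250 bases before to 50 bases after the annotated start in RefSeq TAIR10.1. The level and change of HSFA2 are not given here, so its promoter is shown for the sequence alone. Capitals mark the heat shock element GAANNTTC, searched on both strands.
HSFA2, chr2:11135374-11135673, + strand: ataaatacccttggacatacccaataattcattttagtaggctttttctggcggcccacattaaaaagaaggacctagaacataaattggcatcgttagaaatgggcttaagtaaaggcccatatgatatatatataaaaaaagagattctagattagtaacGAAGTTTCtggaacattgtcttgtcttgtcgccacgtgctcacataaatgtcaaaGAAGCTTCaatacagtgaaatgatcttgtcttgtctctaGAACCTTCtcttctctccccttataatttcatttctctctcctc
HSP70, chr3:3993837-3994136, - strand: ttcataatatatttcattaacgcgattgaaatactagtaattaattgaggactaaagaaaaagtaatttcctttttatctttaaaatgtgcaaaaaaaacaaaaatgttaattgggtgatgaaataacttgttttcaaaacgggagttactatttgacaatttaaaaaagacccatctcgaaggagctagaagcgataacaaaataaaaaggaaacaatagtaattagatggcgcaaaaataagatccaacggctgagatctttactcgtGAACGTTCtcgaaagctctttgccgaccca
HSFA2 held 3 matches and HSP70 held 1. The element occurred in 24.6% of the 61 heat-shock promoters and in 24.1% of the 29 that were lower in C24, beside 11.4% of the promoters of 28874 tested genes. These windows are the reference sequence, and neither parent's own promoter was read.

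Genes of dehydration and cold include many targets of abscisic acid and of the CBF factors. Of 53 tested, 19 were lower and 2 higher (39.6%), with a median log2 change of -0.35. LTI78 (chr5:21240717-21243644), a protective protein induced by cold and drought, was at 105, 69.7 and 19 CPM in C24 A, B and C and 566, 599 and 433 in Ler, a change of -3.04 ± 0.46 on the log2 scale (adjusted p = 2e-05). The groups were far apart and C24 C was the lowest library, and without C24 C the change was -2.61. ERD10, a dehydrin, was at 288, 163 and 154 CPM in C24 and 526, 512 and 409 in Ler (-1.26 ± 0.25), and COR15A, a chloroplast protein that stabilises membranes in the cold, at 448, 604 and 364 beside 717, 821 and 694 (-0.66 ± 0.16). KIN2 was lower by -1.91 ± 0.27 in non-overlapping groups. CBF1, the factor that activates this set, was at 2.98, 0.634 and 0.45 CPM in C24 and 6.63, 7.64 and 2.9 in Ler; the groups overlapped, and its change of -2.07 ± 0.57 was not called without C24 C (-1.66) and was -3.39 without C24 A. XERO1, another dehydrin, went the other way, at 2.39, 1.64 and 2.39 CPM in C24 and 0.871, 1.01 and 0.777 in Ler (1.27 ± 0.24). Without C24 C, 12 members were called lower and 2 higher.

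The promoter of LTI78, the member with the largest fall, is given in the same form. Capitals mark the dehydration-responsive element ACCGAC, searched on both strands.
LTI78, chr5:21240467-21240766, + strand: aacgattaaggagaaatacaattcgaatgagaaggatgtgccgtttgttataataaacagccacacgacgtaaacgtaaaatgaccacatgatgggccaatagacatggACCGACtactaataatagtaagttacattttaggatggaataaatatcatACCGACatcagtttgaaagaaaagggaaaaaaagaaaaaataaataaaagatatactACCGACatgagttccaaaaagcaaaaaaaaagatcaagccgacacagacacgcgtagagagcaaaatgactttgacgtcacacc
It held 3 matches to this element and 0 to the abscisic acid-responsive core ACGTG in this window. The dehydration-responsive element was in 18.9% of the 53 promoters of the list and in 21.1% of the 19 that were lower, beside 5.79% of all tested promoters. The ACGTG core was in 67.9% of the list, 57.9% of the 19 that were lower and 26.3% of all. For the sulfur list, the sulfur-responsive core GAGAC was in 33.3% of promoters and 18.2% of the 11 that were higher, beside 32.9% of all.

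**Figure D4:**
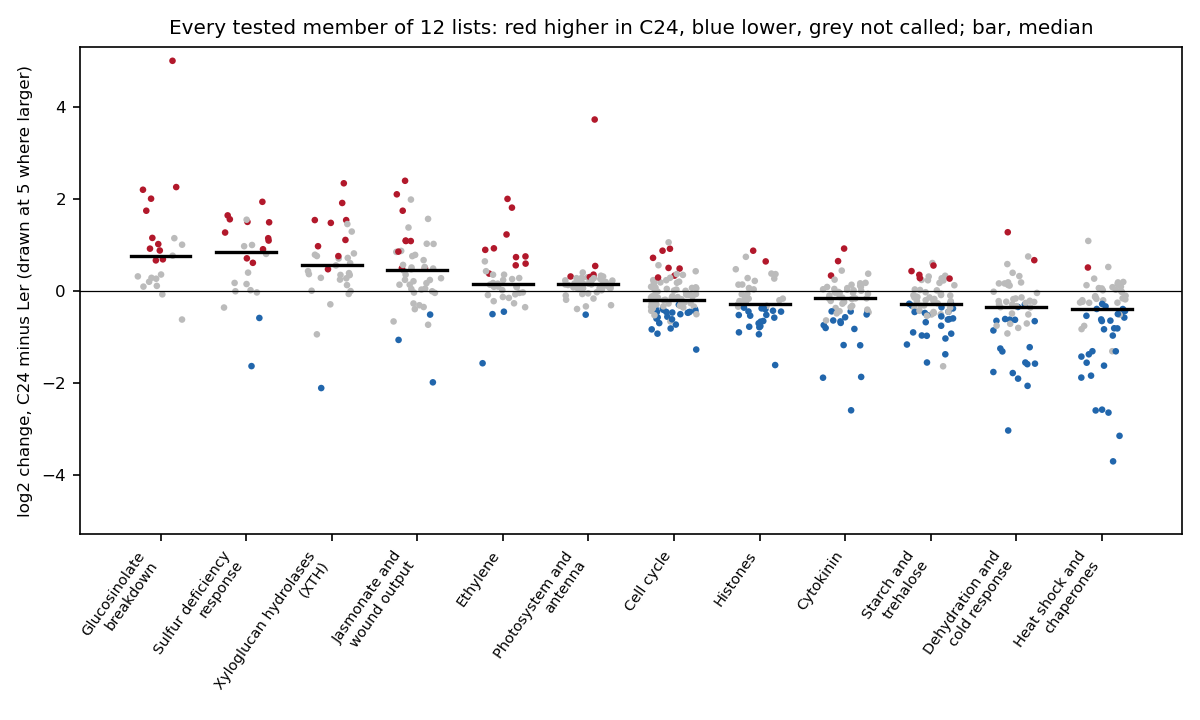
Log2 change, C24 minus Ler, of every tested member of 12 lists (vertical axis, values beyond 5 drawn at 5), with called members red (higher in C24) or blue (lower), others grey, and a black bar at the median of the list. The bars run from 0.85 in sulfur deficiency and 0.76 in glucosinolate breakdown to -0.35 in dehydration and cold and -0.4 in heat shock.

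Genes of dividing cells differed by small amounts. Of 92 cell-cycle genes, 23 were lower and 7 higher (32.6%) with a median log2 change of -0.2, and 1 of them exceeded an absolute change of 1: KRP6, an inhibitor of cyclin-dependent kinases, at 3.21, 2.99 and 2.08 CPM in C24 and 6.71, 7.67 and 5.8 in Ler (-1.28 ± 0.18). The syntaxin SYP111, which builds the cell plate, was at 20.5, 18.1 and 17.5 CPM in C24 and 35.8, 36.2 and 35.4 in Ler (-0.94 ± 0.12), and overlaps another counted gene. LGO, a kinase inhibitor that promotes giant cells, was higher at 30.3, 37.5 and 35.2 CPM beside 20.9, 15.2 and 26.8 (0.71 ± 0.18), as was MCM9 (0.87 ± 0.24). Histones, which package new DNA, had 20 members lower and 2 higher of 45 (48.9%, median -0.3), and 1 of these changes was of at least 1 on the log2 scale. The histone gene AT5G59970 was at 29.1, 22.1 and 20.3 CPM in C24 and 47.5, 42.7 and 47.9 in Ler (-0.95 ± 0.13), AT3G46320 was lower by -1.62 ± 0.15 and HTA8, a histone H2A, by -0.91 ± 0.19. Copies of these genes are close, and 27.9% of the 50-base windows of AT3G46320 recur in the genome. The 2 that were higher were the linker histone HIS1-3, at 77, 72.4 and 98.5 CPM in C24 and 50.7, 46.6 and 38.4 in Ler (0.87 ± 0.16), and AT4G40030 (0.64 ± 0.07).

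Genes of DNA methylation and RNA-directed silencing, which keep transposons inactive, were called at 42.9% of 42, 14 lower and 4 higher, with a median of -0.05. NRPD1B, the largest subunit of RNA polymerase V, was at 28.2, 27.3 and 28 CPM in C24 and 46.4, 49.5 and 51.4 in Ler, a change of -0.82 ± 0.09 on the log2 scale (adjusted p = 1.2e-07). CRH1, an ATPase of the MORC silencing family, was at 7.06, 5.93 and 5.93 CPM beside 13.2, 16.4 and 15.2 (-1.24 ± 0.11). SUVH9, which recruits RNA polymerase V to methylated DNA, was higher at 49.6, 41.9 and 37.1 CPM in C24 and 15, 14.1 and 12.1 in Ler (1.64 ± 0.11), and the histone demethylase IBM1 was higher at 23.1, 23.1 and 23.5 CPM beside 13.8, 13.8 and 13.2 (0.77 ± 0.09). The groups did not overlap in any of these 4 genes. Of 26 genes of the small RNA machinery, 5 were higher and 6 lower (42.3%), and AGO7, the Argonaute of trans-acting small RNAs, was at 9.54, 7.37 and 5.99 CPM in C24 and 16.5, 18.7 and 14.8 in Ler (-1.13 ± 0.17).

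Cytokinins promote division in shoots and act through a relay of phosphotransfer proteins and response regulators. Of 58 cytokinin genes, 16 were lower and 3 higher in C24 (32.8%, median -0.17), and 12 were called without C24 B or without C24 C. The phosphotransfer protein AHP5 (chr1:847793-849621) was at 3.55, 3.03 and 3.09 CPM in C24 and 17.9, 21.1 and 19.8 in Ler, a change of -2.6 ± 0.32 on the log2 scale (adjusted p = 8.9e-07). The response regulator ARR7, a feedback inhibitor, was at 6.33 ± 3.81 CPM in C24 and 23.6 ± 6.47 in Ler (SD, n = 3; -1.89 ± 0.5, or -2.51 without C24 A), and CKX1, which degrades cytokinin, at 3.1, 2.06 and 1.88 beside 8.77, 9.18 and 7.94 (-1.88 ± 0.34). All 3 had separate groups, while the receptor gene HK2 (0.64 ± 0.23) was higher in the full set and not called without any 1 of 4 libraries. Of 54 leaf growth regulators, 7 were higher and 10 lower (31.5%), with 11 called without C24 B or without Ler B. AN3, the co-activator of growth-regulating factors that drives cell number in leaves, was at 5.27, 4.58 and 4.58 CPM in C24 and 12.4, 15.5 and 16 in Ler (-1.6 ± 0.34). The growth-regulating factor 8 gene AT4G24150 was lower by -1.75 ± 0.25. Gibberellin and brassinosteroid genes had 13 members higher and 5 lower of 59 (30.5%, beside 25.8% of all genes), and 8 higher and 3 lower without C24 C. Of the gibberellin synthesis genes, GA1 (-1.09 ± 0.24), GA3OX1 (-1.08 ± 0.23) and GA20OX1 (-0.86 ± 0.32, not called without any 1 of 5 libraries) were lower and GA3 (0.7 ± 0.1) was higher.

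Among the genes that loosen walls, XTH and expansin genes are described in turn. Xyloglucan hydrolases (XTH) cut and rejoin the tethers between cellulose fibrils. Of 33 tested, 9 were higher in C24 and 1 lower (30.3% beside 25.8% of all genes, median 0.55). XTH4 was at 197, 232 and 449 CPM in C24 A, B and C and 85.3, 75.2 and 143 in Ler, a change of 1.53 ± 0.28 on the log2 scale (adjusted p = 0.00019). XTH33 was at 5.37, 11.7 and 35 CPM in C24 and 3.26, 2.7 and 4.34 in Ler (2.34 ± 0.45), and XTH8 was higher by 1.54 ± 0.24. The groups did not overlap, and C24 C was the highest library in each: without it the changes of XTH4 and XTH33 were 1.09 and 1.31, and without C24 A 16 members of the list were called. Expansins, which loosen walls without cutting them, had 6 members in each direction of 30 (40%). EXPA15, at 24.5, 11.2 and 9.55 CPM in C24 and 44.9, 47 and 33.7 in Ler (-1.47 ± 0.32), and EXPA4 (-1.09 ± 0.25) were lower, whereas EXPA11 (0.76 ± 0.28) and EXP3 (0.58 ± 0.2) were higher and not called without any 1 of several libraries, C24 A among them. Of 40 members of the cellulose synthase family, 11 were higher and 4 lower (37.5%). CSLA01, a mannan synthase-like gene, was at 1.29, 1.53 and 1.74 CPM in C24 and 16.3, 17.5 and 10.3 in Ler (-3.27 ± 0.47). Arabinogalactan proteins and extensins had 22 members higher and 6 lower of 115 (24.3%, beside 25.8% of all genes). AT2G27385, annotated as an extensin-like protein, was at 268, 273 and 314 CPM in C24 and 74.3, 68 and 81.6 in Ler (1.93 ± 0.14).

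Starch and trehalose genes were more often called lower than higher in C24, with 23 lower and 5 higher of 67 (41.8%) and a median log2 change of -0.29. Trehalose-6-phosphate is a signal of sugar status in plants, and TPPB, a phosphatase that removes it, was at 3.94, 4.38 and 3.92 CPM in C24 and 13.8, 10.8 and 11.5 in Ler, a change of -1.56 ± 0.23 on the log2 scale (adjusted p = 1.2e-05). The trehalase TRE1 was at 4.8, 4.28 and 4.17 CPM beside 10.7, 9.77 and 9.45 (-1.17 ± 0.13), and the sucrose synthase SUS5 at 3.17, 4.26 and 3.58 beside 9.69, 8.81 and 10.3 (-1.38 ± 0.22). These 3 genes had separate groups. The phosphoglucomutase gene AT5G51820, of the path from sugar to starch, was higher at 103, 120 and 126 CPM in C24 and 89.4, 84.9 and 86.1 in Ler (0.42 ± 0.08), as was LSF1 (0.55 ± 0.09, overlapping another gene), which takes part in starch breakdown.

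Genes of senescence and sugar starvation had 12 members lower and 4 higher of 37 (43.2%), and 6 lower and 3 higher without C24 C. The asparagine synthetase gene ASN1, induced in darkness and low sugar, was among the strongest differences of an abundant gene, at 169, 230 and 698 CPM in C24 A, B and C and 15.4, 11.2 and 21.8 in Ler, a change of 4.5 ± 0.61 on the log2 scale (adjusted p = 3.4e-06). The groups were far apart, C24 C was the highest, and without C24 C the change was 3.63, but the gene overlaps another counted gene and its level is uncertain. SAG13, a marker of senescence and stress, was lower at 5.8, 6.1 and 6.38 CPM in C24 and 26.1, 26 and 16.7 in Ler (-1.91 ± 0.48). Without Ler A, 9 members of the list were called.

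Counts of called photosynthesis genes moved with the fit. Of 54 nuclear photosystem and antenna genes, 6 were higher and 1 lower (13.0%), and their median log2 change was 0.14. The count fell to 3 or 4 without C24 C, Ler B or Ler C, and rose to 15 (10 higher, 5 lower) with the parental libraries only. At an unadjusted p under 0.05 there were 19. PSBP-2, an oxygen-evolving subunit relative, stood out at 72.6, 87.3 and 70.1 CPM in C24 and 6.69, 5.09 and 5.66 in Ler (3.72 ± 0.39), and overlaps another gene. Of 35 Calvin cycle genes, 8 were higher and 0 lower in C24 (22.9%), all by less than 1 on the log2 scale, and 4 were called without the filter on low counts. Leaving out single libraries gave 0 (without Ler B) to 7 calls, with 1 without C24 A (a fall), C24 C or Ler C and 2 without C24 B. Of 86 tested genes of the plastid genome, 1 was higher and 3 lower (4.65%), among them ATCG00480, at 11.3, 14.1 and 15.4 CPM in C24 and 24.8, 22.3 and 23.3 in Ler (-0.79 ± 0.18), and 2 were called without C24 B or without Ler B. Copper genes had 7 members higher and 3 lower of 28 (35.7%). CCS, the chaperone that loads copper into superoxide dismutase, was at 34.4, 29.6 and 42.9 CPM in C24 and 23.2, 14.8 and 16.2 in Ler (0.98 ± 0.16), and CSD2, a superoxide dismutase, was higher by 1 ± 0.3 in overlapping groups and not called without any 1 of 4 libraries. The copper chaperone CCH was lower, at 116, 143 and 122 CPM beside 207, 227 and 223 (-0.78 ± 0.1).

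Phenylpropanoid and sinapate genes, which make lignin precursors and ultraviolet-absorbing esters from phenylalanine, were called at 55.2% of 29, 11 lower and 5 higher in C24, with a median log2 change of -0.16. PAL1, the entry enzyme, was at 51.8, 45.2 and 34.7 CPM in C24 and 109, 94.3 and 79.3 in Ler, a change of -1.1 ± 0.23 on the log2 scale (adjusted p = 0.00093). 4CL2 was lower by -1.01 ± 0.19 and CCoAOMT1, of lignin synthesis, by -0.77 ± 0.13, all with separate groups. ALDH2C4 (0.7 ± 0.13, overlapping another gene) and SNG1 (0.55 ± 0.15, not called without C24 C), which make sinapate and its malate ester, were higher. The flavonoid branch had 5 members lower and 0 higher of 30 (16.7%), with 1 called without C24 C, 2 without Ler A and 3 without Ler B. UGT78D1, which adds rhamnose to flavonols, was at 11.8, 11 and 7.11 CPM in C24 and 51.3, 52.3 and 43.9 in Ler (-2.3 ± 0.24, adjusted p = 7.5e-08), whereas F3H (-1.2 ± 0.36, overlapping another gene) and FLS1 (-1.01 ± 0.35), the enzymes before it, were lowest in C24 C. Without C24 C neither was called (-0.84 and -0.7), and FLS1 was also lost without any 1 of the Ler libraries.

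Cuticle and wax genes differed within the pathway: 11 were higher and 8 lower of 44 (43.2%), but all 5 changes of at least 1 on the log2 scale were falls. CER1, which makes the alkanes of leaf wax, was at 91.6, 95.7 and 57.8 CPM in C24 and 311, 254 and 220 in Ler, a change of -1.68 ± 0.25 on the log2 scale (adjusted p = 1.5e-05). WSD1, which makes wax esters, was at 2.61, 1.82 and 0.92 CPM beside 11.8, 9.27 and 6.42 (-2.36 ± 0.38), and SHN3, a regulator of cutin and wax, was lower by -1.5 ± 0.21. In all 3 the groups were separate. KCS9, which elongates fatty acids, was higher at 58, 89.1 and 105 CPM in C24 and 36.9, 40.3 and 66.4 in Ler (0.81 ± 0.2, in overlapping groups), and so was the acyltransferase gene AT4G13840 (0.73 ± 0.15).

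Flowering-time genes were called at 34.5% of 55, 11 higher and 8 lower. AGL20, also known as SOC1, the integrator that FLC represses, was at 14.3, 10.7 and 14.8 CPM in C24 and 108, 98.8 and 104 in Ler (-2.97 ± 0.19). AGL8, the fruit and meristem factor FRUITFULL, was at 1.63, 2.08 and 2.04 CPM beside 8.77, 8.17 and 8.66 (-2.15 ± 0.2). Of 110 MADS-box genes, the family of FLC and SOC1, 10 were higher and 16 lower (23.6%, beside 25.8% of all genes). A change of at least 1 was reached by 18 (16.4%), beside 6.96% of all genes. AGL38, a member otherwise known from endosperm, was at 16, 18.9 and 15.5 CPM in C24 and 0.284, 0.11 and 0.114 in Ler (6.63 ± 0.7), and SEP4 was higher at 14.6, 17.1 and 17.3 CPM beside 4.8, 4.63 and 4.47 (1.82 ± 0.12). FRI, the activator of FLC, was at 10.7 ± 0.722 CPM in C24 and 5.61 ± 0.336 in Ler (SD, n = 3; 0.93 ± 0.1), and overlaps another gene. ERECTA itself (AT2G26330) was at 107, 110 and 112 CPM in C24 and 122, 129 and 138 in Ler, a change of -0.24 ± 0.11 on the log2 scale that was not called (adjusted p = 0.12). The erecta allele of Ler is a base change in the coding sequence, so this level does not check the label.

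Markers of other tissues and organs were read in the same libraries. Of 8 floral organ markers, 7 were lower in C24 and 0 higher, their summed level ran from 12.4 to 13.4 CPM in C24 and from 22.2 to 35.8 in Ler, and 4 were called without Ler A. Of 10 phloem and xylem markers 4 were lower and 0 higher, with sums of 302 to 354 CPM in C24 and 379 to 435 in Ler, and 2 were called without C24 A, C24 C or Ler A. Of 13 epidermis and guard cell markers 2 were higher and 2 lower, with sums of 1300 to 1410 and 1260 to 1480 CPM. Among 12 root markers 3 were higher and 0 lower, all 3 overlapping other genes, with sums of 275 to 325 CPM in C24 and 109 to 144 in Ler. Most of the difference in these root sums came from PYK10, with a log2 change of 2. PYK10 was at 206 CPM or more in every C24 library and at 77.4 or less in every Ler library. The next most abundant root marker, SCR, was at 44.2 to 47.6 CPM in C24 and 44.4 to 46.5 in Ler. The root sums are therefore no measure of the list as a whole. Of 15 seed and embryo markers 1, LEC1 (under 0.4 CPM in every library), was lower, and leaving out single libraries gave 0 (without C24 A or Ler C) to 2 (without C24 B) calls. For 8 leaf mesophyll and 6 pollen markers edgeR called 0, with 3 and 1 at an unadjusted p under 0.05, and DESeq2 also called 0. No marker of any list was at 0 in all libraries, and the part of these tissues in the gene lists above was not tested.

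Several large families had shares of calls under the 25.8% of all genes. Cytosolic and organellar ribosomal proteins were called at 19.8% of 338, with 8 changes of at least 1, and pentatricopeptide repeat proteins, which process organelle transcripts, at 20% of 280, 28 in each direction. One of the latter, AT4G18975, was nevertheless at 14.4, 13.3 and 14.3 CPM in C24 and 64.6, 65.7 and 69.5 in Ler (-2.25 ± 0.12). F-box proteins, the substrate receptors of ubiquitin ligases, were called at 17.7% of 626, 63 higher and 48 lower. AT1G10110 was at 0.617 ± 0.157 CPM in C24 and 17.3 ± 1.15 in Ler (SD, n = 3), a log2 change of -4.8 ± 0.19, and AT1G27540 at 4.17, 3.73 and 3.62 beside 74.6, 69.5 and 71.8 (-4.23 ± 0.19), though 45.2% of the windows of the latter recur in the genome. Defensins and small cysteine-rich peptides were called at 9.3% of 172, with 9 calls without Ler A and 10 without C24 B. No test of these shares against the rest of the genes was made.

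Cytochromes P450, efflux carriers and dioxygenases are large families with members in specialised metabolism. Cytochromes P450 were called at 27.9% of 247, 47 higher and 22 lower, close to the 25.8% of all genes. A change of at least 1 was reached by 13.4%, beside 6.96% of all genes. CYP71B24 (chr3:9597941-9599988) was at 25.5, 26.2 and 28.1 CPM in C24 and 1.46, 3.73 and 2.1 in Ler, a change of 3.44 ± 0.3 on the log2 scale (adjusted p = 3.6e-09). CYP706A2 was at 13.9, 12.5 and 16.4 CPM beside 1.28, 1.89 and 1.44 (3.21 ± 0.24), with 60.4% of its windows found elsewhere, and CYP71A25 was at 0.666, 0.634 and 0.572 beside 10.8, 10.5 and 8.2 (-3.97 ± 0.43). MATE efflux carriers, which export metabolites and metals, were called at 47.3% of 55, 15 higher and 11 lower. AT1G66760 was at 49.3, 49 and 37.8 CPM in C24 and 11, 11.4 and 7.94 in Ler (2.16 ± 0.35), and ALF5 at 5.41, 5.75 and 5.87 beside 14.9, 12.6 and 15.8 (-1.34 ± 0.11). Dioxygenases that use 2-oxoglutarate were called at 32.4% of 108, 25 higher and 10 lower. Besides AOP3, AT2G25450 was at 49.7, 41.3 and 45 CPM in C24 and 9.91, 0.716 and 0.966 in Ler (3.57 ± 0.57), with Ler A above Ler B and C and a change of 5.75 without Ler A. In all of these named enzymes and carriers the groups did not overlap.

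Where 2 neighbouring genes were both called, they usually changed the same way. Pairs were taken between successive tested genes after genes that overlap another were left out. Among 21878 pairs both genes were called in 1927, and the direction was the same in 1407 of these (73.0%). Of single genes that overlap no other, 25.3% were called, 2911 higher and 2731 lower in C24. Whether called genes lie together more often than this share gives was not tested. Runs of at least 3 neighbours, all called in 1 direction with an absolute log2 change of at least 1, numbered 83, of which 44 were higher and 39 lower in C24. No overlapping gene was in 58 of the runs. The longest held 20 genes at chr1:21729913-21837779, all lower in C24 by 1.54 to 4.19 on the log2 scale. It begins with RXW8, annotated as a GDSL-like lipase, at 52.1, 24.8 and 12.8 CPM in C24 A, B and C and 298, 274 and 314 in Ler, a change of -3.3 ± 0.57, or -2.94 without C24 C and -3.97 without C24 A. It goes on with the immune receptor AT1G58602, at 34.6, 27.5 and 22.6 CPM beside 132, 136 and 119 (-2.19 ± 0.26, overlapping another gene), and with copies of lipase, receptor, kinase and ribosomal protein genes. From AT1G58643 to the end of the run, 98.9% to 100% of the 50-base windows of each gene recur in the genome. Their reads may be shared, so the 20 falls may not be separate. The last gene averaged 0.0528 CPM in C24 and 0.174 in Ler, and was not called with DESeq2 or without any 1 of the C24 libraries, Ler A or Ler B. The call of 1 ribosomal protein gene (-1.56 ± 0.44) was lost without C24 C (-1.12) or without Ler C.

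The run is shown by the first 60 bases of 1 of its genes, because the reference holds the same bases more than once and reads from them have no single place. The stretch is from AT1G58936, of the inositol-pentakisphosphate kinase family, on the + strand of TAIR10.1.
AT1G58936, chr1:21803600-21803659: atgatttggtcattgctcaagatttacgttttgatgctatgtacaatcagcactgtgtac
It had 3 exact matches in the genome, here, in AT1G58643 (chr1:21767342-21767401) and in AT1G59312 (chr1:21839858-21839917), so the values of these copies are uncertain. AT1G58936 was at 0.255, 0.119 and 0.143 CPM in C24 and 0.831, 0.789 and 0.549 in Ler. Over the whole genome, 5.7% of genes with no recurring 50-base window were called with a change of at least 1, 10.8% of those with up to 10% of windows recurring, 15.3% of those with 10% to 50%, and 12.7% of those above.

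The next runs were of 9, 8, 8 and 7 genes, and 4 runs of 6 genes followed, 2 higher and 2 lower in C24, of which the one with the largest median change is described. At chr5:10350541-10409696 9 genes were higher in C24, led by AT5G28450, annotated in the chlorophyll-binding family, at 24.9, 23.4 and 21.1 CPM in C24 and 0.547, 0.551 and 0.549 in Ler (5.39 ± 0.25). In the genome 37.2% of the 50-base windows of AT5G28450 recur, and 100% of those of AT5G28460 in the same run, so their levels are uncertain. At chr3:11311266-11346095 8 genes were lower, with a median log2 change of -1.68, and at chr3:15440476-15503638 another 8 were lower. In the latter run the GDSL-like lipase gene averaged 0.0472 CPM in C24 and 0.348 in Ler, and 30% of its windows recur. The last gene of that run averaged 0.305 and 0.998 CPM. The first averaged 0.317 and 0.676 CPM (-1.08 ± 0.32), and was not called without C24 C (-0.81) or without Ler C. At chr4:4990153-5139725 7 genes were higher, with AT4G08093, a pseudogene, at 8.35, 8.9 and 9.3 CPM in C24, 0.0203 in Ler A and 0 in Ler B and C. At chr3:15644009-15660126 6 genes were higher, among them the leucine-rich repeat gene AT3G43740 (8.64, 7.65 and 7.26 CPM in C24, 0.0608, 0.0367 and 0.0568 in Ler) and the transporter ZIFL2, at 12.9, 14.1 and 17 CPM beside 3.59, 3.82 and 4.55 (1.88 ± 0.16). Some genes named above for their pathway also lie in runs. XTH4 is in a run of 6 higher in C24, MYC3 in 1 of 6 lower and SUS5 in 1 of 5 lower. AHP5 and ARR7 are each in 1 of 3 lower. Whether such a run reflects a stretch of the genome that differs between the parents was not tested.

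The 24 libraries of the hybrids and F6 lines, which the contrast did not use as samples, show how far parental levels recurred in descendants. A line was placed at a parental level when its mean log2(CPM + 0.5) was within 1 of that parent and more than 1 from the other. Of the 327 genes with a fitted change of at least 3, 177 had parents more than 2 apart on this scale. At these 177 genes the F6 lines were at a parental level for 75.1% (HM-S) to 94.4% (HM-W). The F1 hybrids were at a parental level for 66.1% (C24XLer) and 71.2% (LerXC24), nearly always that of the higher parent, 63.3% and 65.5%, and at that of the lower parent for 2.82% and 5.65%. A hybrid midway in CPM between very different parents lies within 1 of the higher parent on a log2 scale, so these shares are no measure of dominance.

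CSA1 and DAR4 were at the C24 level in Med-E, Med-F and Sml-D and at the Ler level in HM-G, HM-S and HM-W. CSA1 was at 62.2 CPM in Med-E and 61.5 in Sml-D, at 3.46 in HM-G, at 4.36 in HM-S, at 4.46 in HM-W, and at 29.6 and 35.2 in the hybrids C24XLer and LerXC24. AT1G63880 and AT1G61500 were at the C24 level in Med-E, Med-F and HM-G, at the Ler level in HM-W and Sml-D, and at neither in HM-S. AT1G63880 was at 55.4 CPM in HM-G and 4.73 in Sml-D. PCR1 was at 79.2 CPM in HM-W, at the Ler level, and at 1.68 in Sml-D, at the C24 level. THI2.2 was at 3.64 CPM in Med-E and between 52.2 and 84.4 in HM-S, HM-W, HM-G and Sml-D. LTI78 was at neither parental level in LerXC24, HM-G, Sml-D and Med-E, and AT5G48570 at neither in Med-E and Sml-D.

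**Figure D5:**
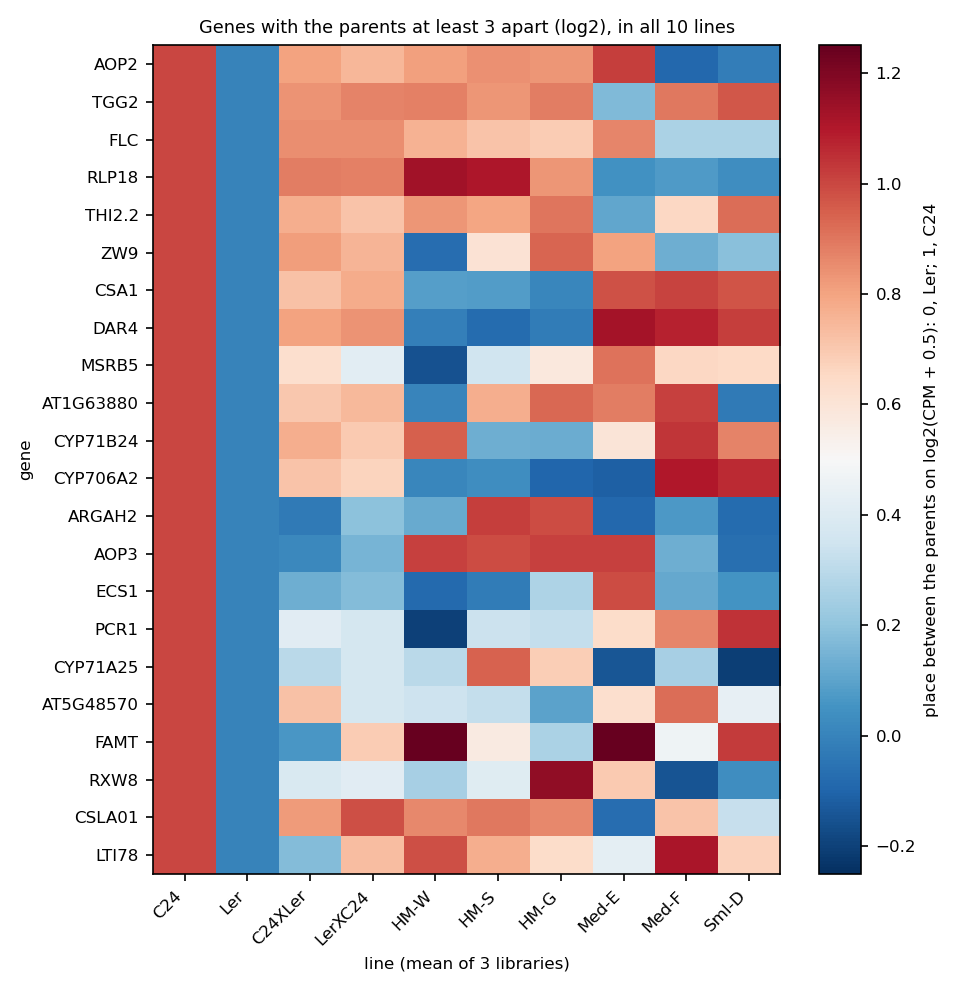
Place of each of 10 lines (columns, mean of 3 libraries) between the parents for 22 genes (rows) with a fitted parental change of at least 3, on a log2(CPM + 0.5) scale where 0 (blue) is the Ler mean and 1 (red) the C24 mean. CSA1 and DAR4 are red in Med-E, Med-F and Sml-D and blue in HM-G, HM-S and HM-W; the 2 F1 columns are pale red for most genes higher in C24.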

How the data were processed

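The libraries are RNA-seq of aerial tissue. The deposited gene table holds raw counts, with no normalization per its header, and the deposited depth table gives counts of reads by alignment class. FastQC, DESeq and the build TAIR10 are named in the submitters' processing notes. The sources used here name no aligner or counter and no strand setting. Gene counts summed to 1.29 or 1.3 per accepted read in the 6 parental libraries, and the reason is not given. Genes were matched to the RefSeq TAIR10.1 annotation (32742 of 33498), and 7139 that overlap another counted gene are uncertain. The labels list 24 barcodes for 30 libraries, and each parental library shares one with a library of another line.

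All 30 libraries entered 1 quasi-likelihood fit in edgeR 4.0.16 (R 4.3.3) with a coefficient per line, TMM scaling and filterByExpr at a minimum count of 10. In counts simulated from the fitted means and dispersions, 100 genes were changed by 1 on the log2 scale and 100 by 2, all above 1 CPM. Of these, 87% and 99% were recovered, with 6 false calls. Far fewer genes were changed there than were called in the data, and recovery at lower levels was not tested. The 74 lists and families and 7 marker lists are described by counts and medians without a list test. They, the rules and the tests were chosen with earlier results of these data known. Named genes are the 12 highest and 12 lowest called changes above 10 CPM, the 8 largest CPM differences each way, up to 3 highest and 3 lowest called members per list, the 6 longest runs, and ERECTA, FLC and FRI. The rankings by change and by CPM difference took only genes whose C24 and Ler libraries did not overlap. Some genes these rules select are not named, 1 of them because it is not reported here, and HSFA2 and LEC1 were added after their values were seen. Same-lettered libraries of the parents deviated together at a correlation of 0.116 (A), -0.026 (B) and 0.286 (C), so the letters were not used as pairs. Alternatives were RLE scaling, no filter, parental libraries only, a replicate block, each library left out, a clock index, DESeq2 1.42.0 and genes without overlap.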

Additional observations from a re-analysis of the deposited data

How the results depend on the processing

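The total of 7555 calls was 7550 with RLE factors, 7498 without the filter, 7717 with DESeq2, 6492 with the parental libraries only, 6063 with the clock index, 5642 among genes that overlap no other, 2038 with an absolute log2 change of at least 1, and 5829 (without C24 C) to 7187 (without C24 A) with a library left out. These fits kept 71.1% (clock index) to 99.7% (RLE) of the calls, and 0 were called in the opposite direction. The replicate letter as a block in the parental libraries gave 6986 calls and, as numbers of members, 20 in jasmonate, 20 in photosystem, 14 in Calvin cycle, 2 in seed and 3 in mesophyll genes; the letters share only a name. With parental libraries only, 15 photosystem and 2 mesophyll genes were called, without the filter 4 Calvin cycle genes, and with the clock index 1 flavonoid, 10 senescence, 11 gibberellin and brassinosteroid, 1 pollen and 1 mesophyll gene. With 1 library left out the counts ran from 3 to 6 in photosystem, 0 to 7 in Calvin cycle, 2 to 4 in plastid genome, 18 to 31 in heat shock, 12 to 17 in cytokinin, 11 to 15 in leaf growth, 9 to 16 in XTH, 1 to 5 in flavonoid, 9 to 14 in defensin, 9 to 17 in senescence and 11 to 23 in gibberellin and brassinosteroid genes, and from 4 to 7 in floral, 2 to 4 in phloem and xylem, 0 to 2 in seed and 0 to 1 in mesophyll markers. The causes were not tested. DIN2 was at -1.64 and ran from -2.08 (without Ler B) to 0.01 (without Ler A). The other counts of the lists described stayed within 1.5 times their values. Of 141 genes named, 20 lost their call in at least 1 alternative. Counts limit low genes most: under 0.3 CPM in the mean of all 30 libraries, 13.2% were called.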
